A study of Mus musculus with 8 samples.

Results

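The genes of glycolysis and of the pentose phosphate pathway were measured in mouse immature myeloid cells (IMCs) from mice with PARP1 or PARP2 deletion in the myeloid lineage. The set was a fixed list of gene symbols covering glucose uptake, each step from glucose to lactate, lactate export, the regulators Hif1a and Pdk1, and both branches of the pentose phosphate pathway. All 33 symbols were found among the 24062 genes of the count table, and all 33 were among the 13197 genes with enough counts to be tested. The lowest count of any member in any library was 275.

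Glycolysis splits glucose into pyruvate, which is either reduced to lactate and exported or taken into mitochondria. The pentose phosphate pathway branches off after the first step. Its oxidative branch makes NADPH, which phagocytes spend on the oxidative burst and on glutathione, and its non-oxidative branch exchanges sugars with glycolysis and supplies ribose for nucleotides. Myeloid cells are known for high glycolytic activity, and the factor HIF-1 switches on many of these enzymes when oxygen is low. PARP1 and PARP2 are nuclear enzymes that consume NAD, the cofactor that the Gapdh step of glycolysis also needs.

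The study asked how deletion of PARP1 or of PARP2 in the myeloid lineage changes the expression profile of IMCs. Total RNA was sequenced from 4 groups of C57BL/6 mice aged 2 months, with 2 libraries each. PARP1 WT mice were PARP1 flox/flox without Cre, and PARP1CKO mice carried PARP1 flox/flox with lysozyme-Cre. PARP2 WT mice were PARP2 flox/flox without Cre, and PARP2CKO mice carried PARP2 flox/flox with lysozyme-Cre. All bone marrow cells were cultured for 3 days with 40 ng/mL of M-CSF, the growth factor of monocytes and macrophages, and were not sorted. In both CKO groups Cre is driven by the lysozyme gene Lyz2, and the WT groups lack it, so presence of Cre and loss of the PARP gene cannot be told apart. The labels do not say whether the libraries of a group came from separate mice or cultures, and p-values therefore measure only the spread between these libraries.

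Between 37852450 and 61845125 counts per library fell on genes. Parp1 stood at 202 and 211 CPM (counts scaled to library size with TMM factors) in PARP1 WT and at 63.2 and 59.1 CPM for PARP1CKO IMCs. Parp2 stood at 48.2 and 48.3 CPM for PARP2 WT and at 25.7 and 25.6 CPM for PARP2CKO IMCs. Both targeted genes were thus lower in every library of their own deletion, and RNA was still counted from both. Outside PARP1CKO, Parp1 was lowest in PARP2 WT replicate 2, at 155 CPM against 251 CPM in replicate 1. Of 13 markers of immature myeloid cells, 12 were in the table and all 12 were counted in every group. Itgam (CD11b) lay between 881 and 1035 CPM, Csf1r between 1134 and 1273 CPM and Ly6c2 between 53.9 and 72.2 CPM, while Ly6g was not analysed here. In bulk RNA, fewer cells of a type and less RNA per cell cannot be told apart.

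Together the 33 genes took between 1.62% and 1.72% of all counts in a library. Pkm, which encodes the pyruvate kinase that ends glycolysis, gave between 24.0% and 25.1% of their counts. Levels were compared between genes only as CPM per kb of exon, taking the union of all annotated exons. On this scale Pkm was first in all 8 libraries, with a median of 799 CPM per kb. Aldoa (454 CPM per kb) and Gapdh (454 CPM per kb) held ranks 2 and 3, and neither was ahead of the other in all libraries. Pgam1 (399 CPM per kb) and Pgk1 (352 CPM per kb) held ranks 4 and 5 in the same way. Taldo1, Pgd, Ldha and G6pdx followed at ranks 6 to 9 with no change of order between libraries. The lowest levels were those of Pfkm (3.68 CPM per kb), Pdk1 (4.91 CPM per kb) and Rpia (5.32 CPM per kb). This order depended on the length used. With the length of the principal transcript, Pkm (1642 CPM per kb) stayed first and Pfkm (4.27 CPM per kb) last by their medians, but Gapdh (1321 CPM per kb) lay above Aldoa (853 CPM per kb), Pgd (616 CPM per kb) above Taldo1 (506 CPM per kb) and Pgam1 (446 CPM per kb), G6pdx (199 CPM per kb) below Eno1 (296 CPM per kb), and Rpia at 15.6 CPM per kb.

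**Figure D1:**
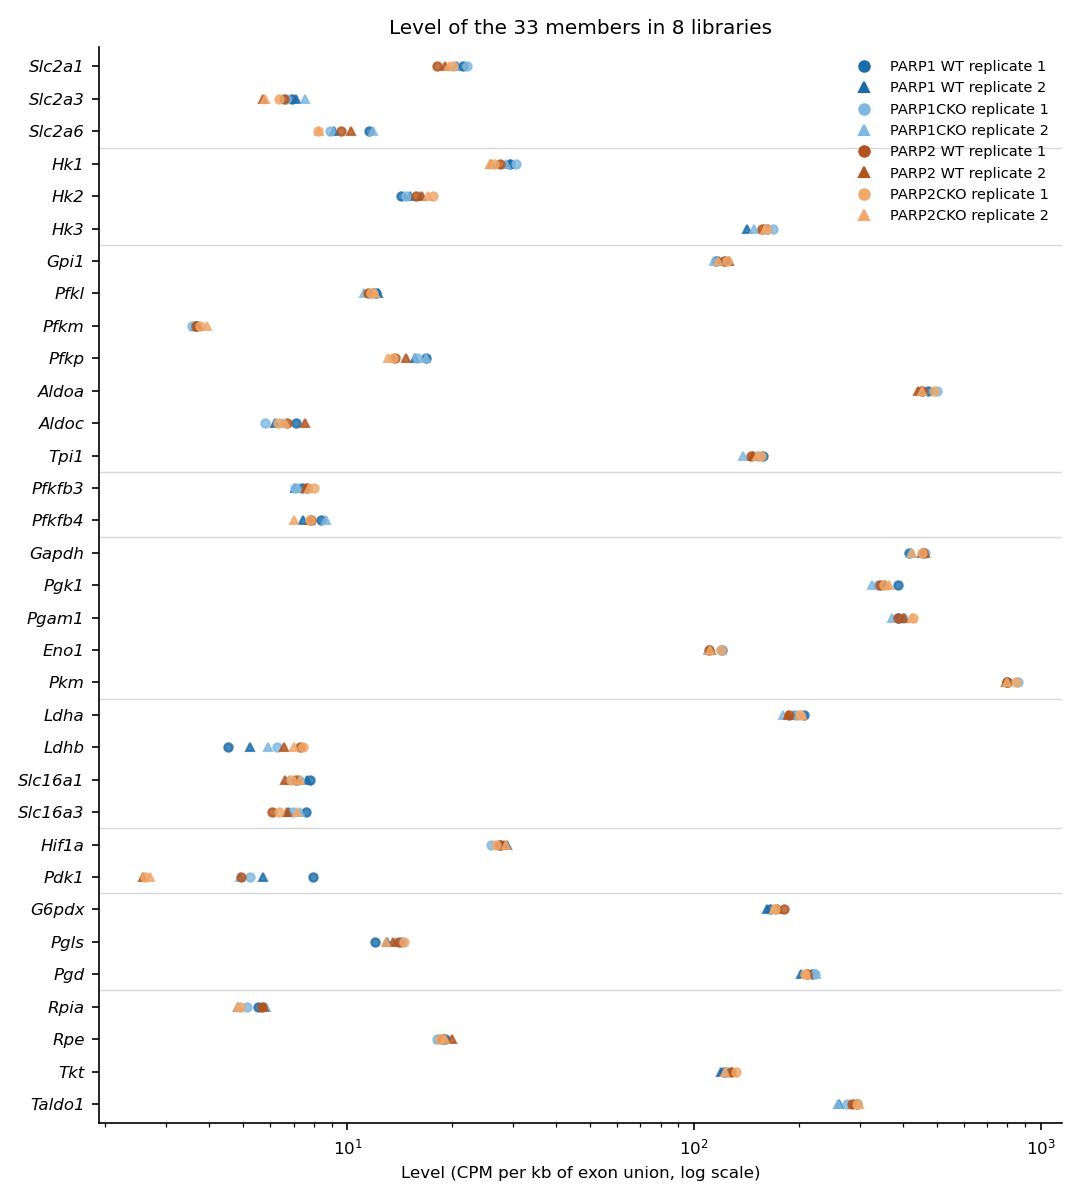
Level of each of the 33 genes in each of the 8 libraries, as CPM per kb of exon union on a log axis. Colours mark the 4 groups, circles replicate 1 and triangles replicate 2, and grey lines separate roles. The 14 genes from Pkm to Eno1 all sit above 109 CPM per kb and the other 19 all sit below 31 CPM per kb.

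The members varied little between libraries. The ratio of the highest to the lowest of the 8 libraries had a median of 1.15 over the members and was under 1.5 for 31 of 33. Pkm had the lowest ratio, at 1.09. The exceptions were Ldhb, with a ratio of 1.64, and Pdk1, with a ratio of 3.09. Within a group, the ratio between the 2 libraries had a median between 1.03 and 1.07, and the widest was that of Pdk1 in PARP2 WT, at 1.91. No library held all of the extremes, since PARP1 WT replicate 1 was highest for 7 members and PARP1CKO replicate 2 was lowest for 9.

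**Figure D2:**
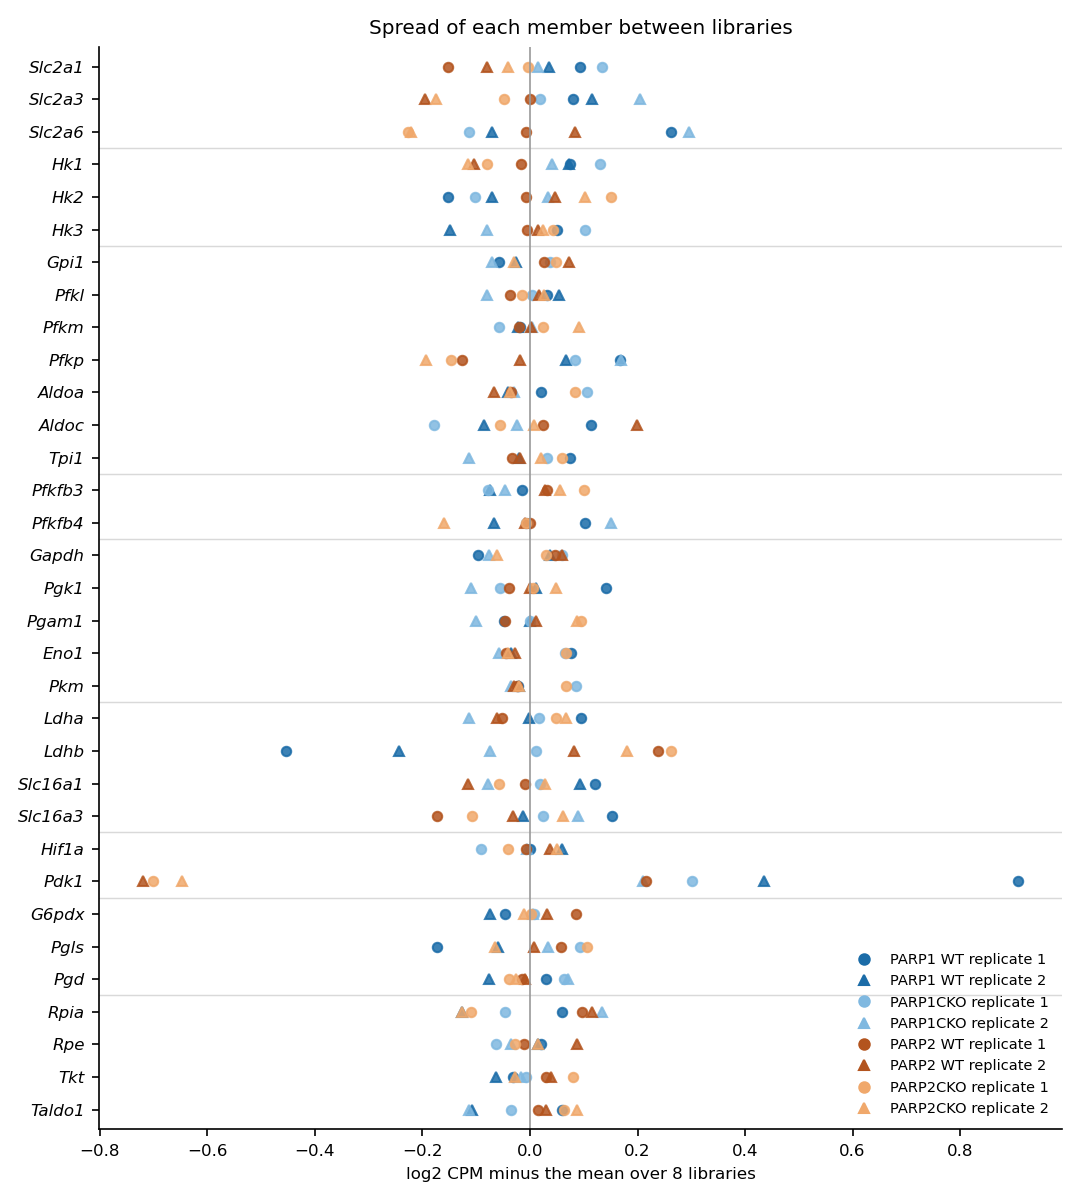
Deviation of each library from the mean of the 8 libraries for each gene, in log2 CPM. Colours mark the groups, circles replicate 1 and triangles replicate 2. Pdk1 reaches furthest from the mean, with Ldhb next and Slc2a6 after it.

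No member passed an adjusted p-value of 0.05 in PARP1CKO against PARP1 WT IMCs by the quasi-likelihood test of edgeR, adjusted by Benjamini-Hochberg over the 13197 genes, of which 0.106% passed. The lowest adjusted p-value of a member was 0.315. Unadjusted p-values under 0.05 were reached by 3 of 33 members (2 higher, 1 lower), against 11.3% of all genes tested. DESeq2 and edgeR's likelihood-ratio test called 0 members as well, and 86 and 146 of the 13197 genes. In PARP1CKO IMCs 18 members lay higher and 15 lower, and the median log2 fold change was 0.0098 over members and 0.0059 over all genes. The 95% interval stayed within 1.2-fold for 26 members, within 1.5-fold for 32 and within 2-fold for 33. The PARP1CKO and PARP1 WT libraries did not overlap for 11 of 33 members (5 higher, 6 lower), a lower share than the 41.2% of all genes.

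In PARP2CKO against PARP2 WT IMCs, 0 members passed by edgeR's quasi-likelihood test, DESeq2 or the likelihood-ratio test. DESeq2 called 27 and the likelihood-ratio test 39 of the 13197 genes, and the quasi-likelihood test called 0.053% of them. The lowest adjusted p-value was 0.888, and 1 member (Rpia, lower) had an unadjusted p-value under 0.05, against 4.83% of all genes. Higher levels were found for 17 members and lower levels for 16, with a median log2 fold change of 0.016 against -0.0014 over all genes. The 95% interval stayed within 1.2-fold for 28 members and within 1.5-fold for 32, and that of Pdk1 reached past 2-fold. The libraries did not overlap for 18 of 33 members (11 higher, 7 lower), a higher share than the 37.2% of all genes, and none of these members passed the test.

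The effects of both deletions were also compared directly. The PARP2CKO effect minus the PARP1CKO effect was called for 0 members by the quasi-likelihood test, by DESeq2 and by the likelihood-ratio test. DESeq2 called 45 and the likelihood-ratio test 72 of the 13197 genes, and the quasi-likelihood test called 0.0152% of them. Unadjusted p-values under 0.05 were reached by 4 members (Rpia, Pgk1, Ldha and G6pdx), against 7.69% of all genes, and the lowest adjusted p-value was 0.609. For 14 members the interval of this difference lay within 1.2-fold, and for 31 within 1.5-fold. Pgk1, G6pdx and Pgd were the 3 members whose libraries did not overlap in either deletion and lay in opposite directions, a pattern of 6.62% of all genes. Non-overlap in the same direction in both was found for 0 members and for 8.39% of all genes. Averaged over both lines, CKO against WT called 0 members by the same 3 tests. DESeq2 called 60 and the likelihood-ratio test 87 of the 13197 genes, and the quasi-likelihood test called 0.106% of them. Here 3 members (Ldhb, Pdk1 and Hk2) had an unadjusted p-value under 0.05, against 9.17% of all genes, and the lowest adjusted p-value was 0.501.

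**Figure D3:**
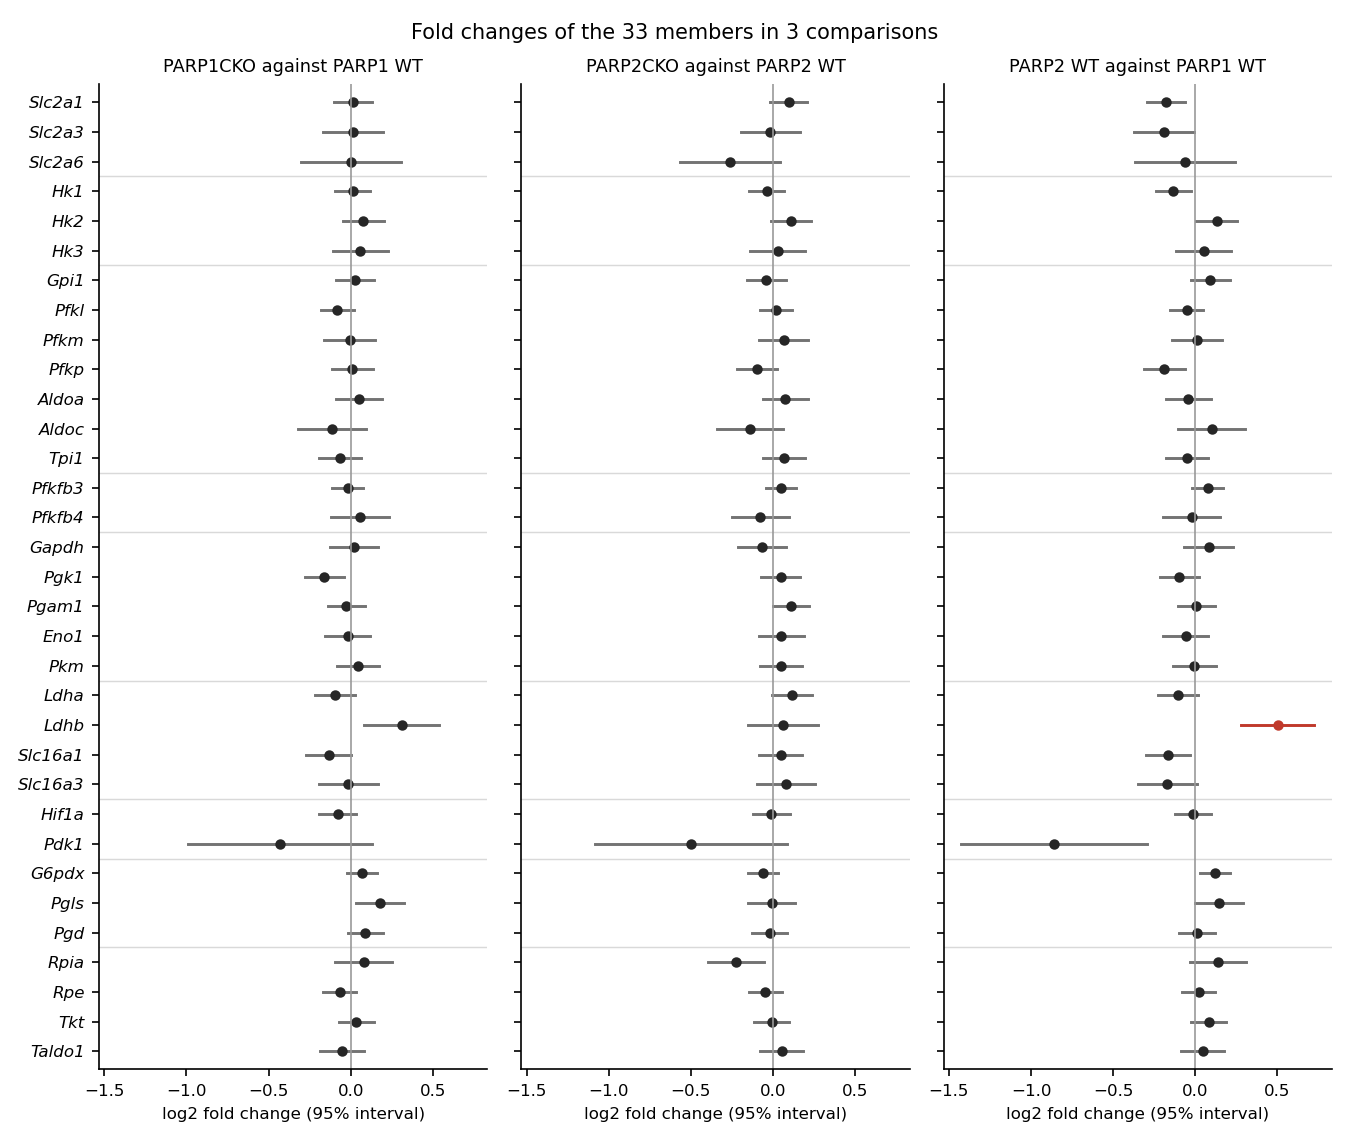
log2 fold change of each gene (points) with its 95% interval (bars) from edgeR's quasi-likelihood fit, for the PARP1 deletion, for the PARP2 deletion and for PARP2 WT against PARP1 WT. Red marks an adjusted p-value under 0.05. Ldhb between the WT groups is the only red interval, and the intervals of Pdk1 are the widest.

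The WT groups of both lines were compared to measure how far mice of different floxed lines differed without any deletion. The line, its colony and its cultures cannot be told apart in this comparison, which shares PARP1 WT libraries with the PARP1CKO comparison and PARP2 WT libraries with the PARP2CKO comparison. In PARP2 WT against PARP1 WT IMCs, 1 member (Ldhb) passed an adjusted p-value of 0.05, against 3.16% of all genes, and 10 members (4 higher, 6 lower) had an unadjusted p-value under 0.05, against 18.9%. The libraries did not overlap for 20 of 33 members (9 higher, 11 lower), against 51.9% of all genes. Higher levels in PARP2 WT were found for 16 members and lower levels for 17, with a median log2 fold change of -0.0053 against 0.0013 over all genes.

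Glucose enters cells through the GLUT transporters. Slc2a1 (GLUT1), the basal glucose transporter of most cells, had 75.4 and 72.5 CPM for PARP1 WT, 77.6 and 71.4 CPM for PARP1CKO, 63.6 and 66.9 CPM for PARP2 WT and 70.5 and 68.7 CPM for PARP2CKO. Both PARP2 WT libraries lay below both PARP1 WT libraries. This difference was -0.18 on the log2 scale (SE 0.0508) with an adjusted p-value of 0.104, and the PARP1CKO effect was 0.01 with an adjusted p-value of 0.946. Both PARP2CKO libraries lay above both PARP2 WT libraries, at a log2 fold change of 0.09 (unadjusted p = 0.0938, adjusted p = 0.954). Slc2a3 (GLUT3), a high-affinity transporter, had 50.2 and 51.4 CPM for PARP1 WT, 48.1 and 54.7 CPM for PARP1CKO, 47.4 and 41.4 CPM for PARP2 WT and 45.9 and 42.0 CPM for PARP2CKO. The WT groups did not overlap for Slc2a3 either, at a log2 difference of -0.19 and an adjusted p-value of 0.242. Slc2a6 (GLUT6), a transporter found on lysosomes, had 37.1 and 29.4 CPM for PARP1 WT, 28.6 and 38.0 CPM for PARP1CKO, 30.8 and 32.8 CPM for PARP2 WT and 26.4 and 26.5 CPM for PARP2CKO. The PARP2CKO libraries were the lowest of the 8. Against PARP2 WT the log2 fold change of Slc2a6 was -0.26 (95% interval -0.57 to 0.04, adjusted p = 0.954). Per kb of exon, Slc2a1 gave between 51.3% and 58.8% of the summed level of the 3 transporters, and Slc2a6 more than Slc2a3. With the length of the principal transcript instead, the shares of Slc2a3 (24.3% to 28.2%) and Slc2a6 (22.7% to 28.2%) overlapped.

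Hexokinases trap glucose by phosphorylating it. Hk3, the isoenzyme typical of myeloid cells, had 599 and 521 CPM for PARP1 WT, 620 and 546 CPM for PARP1CKO, 576 and 584 CPM for PARP2 WT and 595 and 587 CPM for PARP2CKO. Hk1, the ubiquitous form, had 251 and 251 CPM, 261 and 245 CPM, 235 and 222 CPM and 225 and 220 CPM in the same order of groups. Hk2, the inducible form that binds mitochondria, had 85.2 and 90.2 CPM, 88.2 and 96.9 CPM, 94.2 and 97.8 CPM and 105 and 102 CPM in the same order. Hk3 made up between 76.1% and 78.9% of the summed hexokinase level per kb, and between 68.4% and 72.3% with the length of the principal transcript. The Hk3 levels of PARP1CKO and of PARP2 WT overlapped those of PARP1 WT, while both PARP2CKO libraries lay just above both PARP2 WT libraries. Hk1 lay lower and Hk2 higher in both PARP2 WT than in both PARP1 WT libraries, and Hk2 was higher again in both PARP2CKO libraries. Hk2 differed by 0.11 on the log2 scale in PARP2CKO (SE 0.054, adjusted p = 0.954) and by 0.09 in CKO against WT averaged over lines (SE 0.0384, adjusted p = 0.530). None of the 3 passed the test in any of the 5 comparisons.

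In the upper part of glycolysis, glucose 6-phosphate is isomerized, phosphorylated again by phosphofructokinase, the main control step, and split by aldolase. The isomerase Gpi1 lay between 737 and 815 CPM and the triose isomerase Tpi1 between 381 and 434 CPM over all libraries. Pfkp, the platelet type of phosphofructokinase, had 225 and 210 CPM for PARP1 WT, 213 and 226 CPM for PARP1CKO, 184 and 198 CPM for PARP2 WT and 181 and 176 CPM for PARP2CKO. All 4 libraries of the PARP2 line lay below all 4 libraries of the PARP1 line. The WT groups alone did not overlap for 51.9% of all genes. Between the WT groups the log2 difference of Pfkp was -0.19 (SE 0.0547), and the adjusted p-value of 0.113 did not pass, although it did with DESeq2 (adjusted p = 0.0494). Pfkl, the liver type, had 80.5 and 81.8 CPM for PARP1 WT, 78.9 and 74.5 CPM for PARP1CKO, 76.7 and 79.7 CPM for PARP2 WT and 78.0 and 80.2 CPM for PARP2CKO. Pfkm, the muscle type, lay between 11.9 and 13.2 CPM in all libraries. Per kb, Pfkp gave between 45.1% and 53.1%, Pfkl between 35.2% and 41.3% and Pfkm between 11.2% and 13.6% of the summed phosphofructokinase level. With the length of the principal transcript, Pfkp stayed ahead of Pfkl in the other 3 groups, but in PARP2CKO Pfkp was at 43.7% to 45.2% and Pfkl at 45.3% to 46.4%.

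The aldolase of these cells was almost wholly Aldoa, which lay between 1289 and 1455 CPM and made up between 98.3% and 98.9% of the summed aldolase level per kb. Aldoc, the brain type, had 23.2 and 20.2 CPM for PARP1 WT, 18.9 and 21.1 CPM for PARP1CKO, 21.8 and 24.6 CPM for PARP2 WT and 20.6 and 21.6 CPM for PARP2CKO. The groups overlapped in the PARP1 line, and the PARP2CKO libraries lay just below the PARP2 WT libraries. Averaged over lines the CKO effect on Aldoc was -0.13 on the log2 scale (SE 0.0635, adjusted p = 0.583). The bifunctional enzymes Pfkfb3 and Pfkfb4 set the level of fructose 2,6-bisphosphate, which activates phosphofructokinase. Pfkfb3 lay between 53.4 and 60.5 CPM and Pfkfb4 between 34.2 and 42.3 CPM. Per kb neither was ahead on every choice of length, with Pfkfb3 at 45.4% to 52.5% of their sum on exon union and at 48.4% to 55.5% on the principal transcript.

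The lower part of glycolysis returns ATP and NADH. Gapdh, which uses NAD to oxidize the triose phosphate, lay between 1715 and 1910 CPM and had a log2 fold change of 0.02 (95% interval -0.13 to 0.17) in PARP1CKO and of -0.07 (95% interval -0.22 to 0.08) in PARP2CKO. Pgk1, the first ATP-forming step, had 870 and 795 CPM for PARP1 WT, 759 and 732 CPM for PARP1CKO, 768 and 789 CPM for PARP2 WT and 792 and 816 CPM for PARP2CKO. It lay lower in both PARP1CKO libraries and slightly higher in both PARP2CKO libraries than in their WT groups. The PARP1CKO effect on Pgk1 was -0.16 on the log2 scale (SE 0.053, unadjusted p = 0.0149, adjusted p = 0.330), the PARP2CKO effect was 0.05 (adjusted p = 0.972), and the difference between them was 0.21 (SE 0.0749, adjusted p = 0.609). The mutase Pgam1 had 766 and 791 CPM for PARP1 WT, 792 and 738 CPM for PARP1CKO, 767 and 798 CPM for PARP2 WT and 846 and 841 CPM for PARP2CKO. Its PARP2CKO libraries were the highest of the 8. Against PARP2 WT the log2 fold change of Pgam1 was 0.11 (SE 0.0487, unadjusted p = 0.0534, adjusted p = 0.954). Pkm lay between 3953 and 4299 CPM, and its intervals excluded changes of 1.2-fold in both deletions (log2 -0.08 to 0.18 in each).

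Eno1, the enolase, lay between 588 and 646 CPM, but this level is uncertain. Its intronless copy Eno1b had between 0.223% and 0.364% more counts than Eno1 in every library, and 40 genes with over 200 counts in all had counts identical to those of another gene in each library. The counts of Eno1 and Eno1b therefore cannot be told apart. Exons of Tpi1, Gapdh, Aldoa, Pfkp, Hk1, Hk3, Gpi1, Slc2a1, Pfkm, Hif1a, G6pdx and Rpe overlap those of a gene on the opposite strand, and those of Pkm, Pgls, Tkt, Pfkm and Hif1a overlap a gene on the same strand. The sources used here do not say whether counting used the strand, so reads of such pairs may be shared.

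Lactate dehydrogenase is a tetramer of A subunits, which favour lactate formation, and B subunits, typical of oxidative tissue such as heart. Ldha had 688 and 643 CPM for PARP1 WT, 651 and 596 CPM for PARP1CKO, 621 and 617 CPM for PARP2 WT and 666 and 675 CPM for PARP2CKO. Ldhb had 7.11 and 8.22 CPM for PARP1 WT, 9.81 and 9.25 CPM for PARP1CKO, 11.5 and 10.3 CPM for PARP2 WT and 11.7 and 11.04 CPM for PARP2CKO. Ldha thus held between 96.2% and 97.9% of the summed level per kb, and Ldhb was lowest in PARP1 WT, with no library of another group as low. The Ldha to Ldhb ratio per kb was 45.9 and 37.1 in PARP1 WT, 31.5 and 30.5 for PARP1CKO, 25.7 and 28.4 for PARP2 WT and 27.0 and 29.0 for PARP2CKO IMCs. This ratio depends on the length used: Ldhb gave between 2.13% and 3.75% of the summed level on exon union and between 1.38% and 2.44% on the principal transcript, and was lowest in PARP1 WT on both.

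Ldhb (chromosome 6, 142490249 to 142507957 on the minus strand of GRCm38) was the only member to pass the test. It was 1.42-fold higher in PARP2 WT than in PARP1 WT IMCs (log2 0.50, SE 0.0979, 95% interval 0.28 to 0.72, adjusted p = 0.0311), with both libraries above both. Over 16 alternatives the adjusted p-value of Ldhb ran from 0.000512 to 0.189, and 9 of them kept the call. Among the fits that left out 1 library, it was lost without PARP1 WT replicate 1 (log2 0.41, adjusted p = 0.189), without PARP2 WT replicate 1 (log2 0.42, adjusted p = 0.173), without PARP2 WT replicate 2 (log2 0.58, adjusted p = 0.0678) and without PARP2CKO replicate 1 or 2 (adjusted p = 0.0538 and 0.0533). The replicate block (adjusted p = 0.0541) and a fit of only the libraries of the comparison (adjusted p = 0.0619) also lost the call, at a log2 difference of 0.50 in each. In PARP1CKO against the same PARP1 WT libraries Ldhb had a log2 fold change of 0.31 (SE 0.0996, unadjusted p = 0.0127, adjusted p = 0.315). In PARP2CKO it was 0.06 (95% interval -0.15 to 0.27, adjusted p = 0.977), and the difference between the deletion effects was -0.25 (SE 0.137, adjusted p = 0.703). For Ldha the PARP1CKO effect was -0.09 and the PARP2CKO effect 0.11 on the log2 scale, and their difference of 0.21 (SE 0.0765) had an adjusted p-value of 0.609.

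Markers of other cells also differed between the lines. Between the WT groups 3.16% of all genes were called, 18.9% had an unadjusted p-value under 0.05 and the libraries of 51.9% did not overlap. Of 9 B cell markers in the table, 8 were tested and 7 were called lower in PARP2 WT than in PARP1 WT, with summed levels of 30.5 to 44.8 CPM in the PARP1 line and 8.3 to 11.7 CPM in the PARP2 line. Basophil and mast cell markers summed to between 55.6 and 60.7 CPM in the PARP1 line and between 25.7 and 35.3 CPM in the PARP2 line, and 1 of 9 (Kit) was called. Macrophage markers summed to between 4377 and 4770 CPM in the PARP1 line and between 5073 and 5698 CPM in the PARP2 line. Granulocyte progenitor markers summed to between 277 and 325 CPM and between 375 and 422 CPM, and 2 of 7 (Prtn3 and Elane) were called higher. Erythroid markers summed to between 9.1 and 14.9 CPM and between 5.5 and 6.2 CPM, with 2 of 8 called lower, the near-identical alpha globin genes Hba-a1 and Hba-a2. Of the other lists, 2 of 12 neutrophil markers (Retnlg and Mmp9) were called lower, 2 of 12 immature myeloid markers (Lyz2 and Cebpa) were called higher, and 0 of 4 T and NK cell and 0 of 8 stromal markers were called (0 and 2 at an unadjusted p under 0.05). No marker of these lists was at 0 in all libraries. In the deletions, no marker of these lists passed in PARP1CKO or PARP2CKO alone, where 0.106% and 0.053% of all genes passed. In PARP2CKO the neutrophil markers lay lower for 11 of 12 (median log2 fold change -0.22), those of basophils and mast cells for 9 of 9 (median -0.41) and those of T and NK cells for 4 of 4 (median -0.37). An unadjusted p under 0.05 was reached by 3, 3 and 0 of these, against 4.83% of all genes. Of the other lists, 8 of 11 macrophage, 5 of 12 immature myeloid and 4 of 7 granulocyte progenitor markers lay higher. So did 4 of 8 erythroid, 3 of 8 B cell and 4 of 8 stromal markers. In PARP1CKO the B cell markers lay higher for 8 of 8 (median 0.27), those of T and NK cells for 4 of 4 (median 0.28) and those of erythroid cells for 6 of 8 (median 0.59). An unadjusted p under 0.05 was reached by 0, 1 and 2 of these, against 11.3% of all genes. There 8 of 11 macrophage, 6 of 12 immature myeloid, 6 of 12 neutrophil and 2 of 7 granulocyte progenitor markers lay higher. So did 3 of 9 basophil and mast cell and 2 of 8 stromal markers. The 10 T and NK cell markers in the table, 4 of them tested, summed to only 4.0 to 6.9 CPM over all libraries. The summed erythroid level did not overlap in this line, at 9.07 to 9.47 CPM for PARP1 WT and 11.5 to 14.9 CPM for PARP1CKO. The libraries of 41.2% of all genes did not overlap in PARP1CKO against PARP1 WT. Averaged over lines, Lyz2, whose locus drives Cre, was lower in CKO by -0.67 (adjusted p = 0.0350) and the macrophage marker Folr2 higher by 0.58 (adjusted p = 0.0488). In this average 0.106% of all genes passed. The part of these markers in the levels of Ldhb, Pdk1 and the other members was not tested.

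The windows around the start sites were searched for short motifs. HIF-1 binds a core of ACGTG or GCGTG, and the E-box CACGTG, bound by MYC, USF and related factors, contains the first on both strands. In the RefSeq windows of GRCm38.p6 from 250 bases before to 50 after the start, these letters stood on either strand in at least 1 window of 29 of the 32 members that had any (90.6%), and in 46.7% of all 27025 genes. Counted by window, since a gene can have several, they stood in 37 of 46 windows of members (80.4%) and in 43.8% of all windows. The E-box stood in 5 members, and in 8.09% of all genes. A match is a description of the letters and not a bound site. The shares of all genes and windows were not matched to the members for base composition or expression, so the gap is not a measure of HIF-1 sites. Ldha (chr7:46845554-46845853, plus strand) had 7 matches, counting each E-box on both strands, a second Ldha window (chr7:46846832-46847131) had 2 and no E-box, and Ldhb (chr6:142507908-142508207, minus strand) had 1. The first Ldha window and that of Ldhb are shown because Ldhb is the called member and Ldha its abundant partner, with matches in capitals.
Ldha: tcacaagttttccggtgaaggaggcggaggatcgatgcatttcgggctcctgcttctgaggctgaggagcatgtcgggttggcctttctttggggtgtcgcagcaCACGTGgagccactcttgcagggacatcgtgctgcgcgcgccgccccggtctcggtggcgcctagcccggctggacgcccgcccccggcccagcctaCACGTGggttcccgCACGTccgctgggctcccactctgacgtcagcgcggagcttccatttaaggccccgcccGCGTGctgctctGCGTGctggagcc
Ldhb: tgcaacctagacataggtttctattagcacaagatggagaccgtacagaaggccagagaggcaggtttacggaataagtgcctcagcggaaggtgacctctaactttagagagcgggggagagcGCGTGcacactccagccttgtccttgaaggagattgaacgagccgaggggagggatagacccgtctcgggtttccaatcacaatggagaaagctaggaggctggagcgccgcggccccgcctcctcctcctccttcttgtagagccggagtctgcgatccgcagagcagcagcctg

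Lactate leaves cells through monocarboxylate transporters. Slc16a1 (MCT1) had 34.5 and 33.8 CPM for PARP1 WT, 32.1 and 30.04 CPM for PARP1CKO, 31.5 and 29.3 CPM for PARP2 WT and 30.5 and 32.3 CPM for PARP2CKO. Slc16a3 (MCT4), the exporter typical of glycolytic cells, had 40.4 and 36.1 CPM, 37.0 and 38.7 CPM, 32.3 and 35.6 CPM and 33.8 and 38.0 CPM in the same order. Both transporters lay lower in both PARP2 WT than in both PARP1 WT libraries, and Slc16a1 also lay lower in both PARP1CKO libraries. For Slc16a1 the log2 fold change was -0.13 in PARP1CKO (SE 0.0597, adjusted p = 0.448), 0.05 in PARP2CKO and -0.17 between the WT groups (adjusted p = 0.178). The difference between its deletion effects was 0.18 (SE 0.084, adjusted p = 0.664). For Slc16a3 the WT groups differed by -0.17 (SE 0.0791, adjusted p = 0.284). Per kb the order of both transporters depended on the length used, with Slc16a1 at 48.2% to 54.0% of their sum on exon union and at 43.2% to 48.9% on the principal transcript.

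Hif1a, the oxygen-regulated subunit of HIF-1, is controlled mainly through protein stability, which these data do not measure. Its RNA lay between 153 and 170 CPM, and its log2 fold change was -0.08 in PARP1CKO (95% interval -0.19 to 0.03), -0.01 in PARP2CKO (95% interval -0.12 to 0.10) and -0.02 between the WT groups. The 95% interval stayed within 1.2-fold in all 3 of these comparisons.

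Pdk1 encodes pyruvate dehydrogenase kinase 1, a HIF-1 target that switches off pyruvate dehydrogenase. It lies on chromosome 2 from 71873224 to 71903858, on the plus strand of GRCm38. It had 61.8 and 44.5 CPM for PARP1 WT, 40.6 and 38.1 CPM for PARP1CKO, 38.3 and 20.01 CPM for PARP2 WT and 20.3 and 21.04 CPM for PARP2CKO. The PARP1CKO libraries lay below both PARP1 WT libraries, while PARP2 WT replicate 2 lay at the PARP2CKO level and replicate 1 nearly 2-fold above it. The log2 fold change was -0.43 in PARP1CKO (SE 0.247, 95% interval -0.99 to 0.13, adjusted p = 0.530) and -0.50 in PARP2CKO (SE 0.258, 95% interval -1.09 to 0.08, adjusted p = 0.954). Averaged over both lines it was -0.47 (SE 0.178, unadjusted p = 0.0286, adjusted p = 0.510), and the difference between the deletions was -0.07 (95% interval -0.88 to 0.74). The PARP2CKO value turned to 0.04 without PARP2 WT replicate 1 and was -0.89 without PARP2 WT replicate 2 (adjusted p = 0.998 and 0.217). The PARP1CKO value was -0.18 without PARP1 WT replicate 1 and -0.65 without PARP1 WT replicate 2 (adjusted p = 0.864 and 0.424), and over 15 alternatives the average ran from -0.66 to -0.19. Between the WT groups Pdk1 was lower by -0.86 (SE 0.249, 95% interval -1.42 to -0.29) and did not pass (adjusted p = 0.114). Without PARP2 WT replicate 1 this value was -1.41 (adjusted p = 0.00804) and without replicate 2 it was -0.47 (adjusted p = 0.272). With all libraries it passed without the filter on low counts (adjusted p = 0.00620) and with the likelihood-ratio test (adjusted p = 0.0152).

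RefSeq gives Pdk1 start sites with 2 windows. The first (chr2:71872974-71873273, plus strand, GRCm38.p6) held 2 matches to GCGTG and no E-box, and the other (chr2:71874654-71874953) held 0 matches. The first is shown because Pdk1 varied most between libraries, with the matches in capitals.
Pdk1: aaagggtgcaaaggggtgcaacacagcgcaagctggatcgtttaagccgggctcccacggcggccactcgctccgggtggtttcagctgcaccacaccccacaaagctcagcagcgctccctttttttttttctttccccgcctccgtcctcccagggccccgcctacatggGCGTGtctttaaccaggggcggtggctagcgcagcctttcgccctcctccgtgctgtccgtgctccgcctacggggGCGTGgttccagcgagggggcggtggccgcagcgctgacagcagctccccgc

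The genes around Pdk1 were examined after its values had been seen. Of the genes starting within 500 kb of the start of Pdk1 and above 1 CPM on average, 3 were others, namely Itga6, Metap1d and Hat1. Itga6, an integrin chain starting 128 kb before Pdk1, had 265 and 225 CPM for PARP1 WT, 222 and 208 CPM for PARP1CKO, 195 and 139 CPM for PARP2 WT and 146 and 141 CPM for PARP2CKO. Metap1d, a mitochondrial methionine aminopeptidase starting 420 kb before it, had 19.0 and 13.5 CPM, 13.1 and 12.6 CPM, 13.4 and 8.13 CPM and 7.43 and 7.85 CPM in the same order. Both shared with Pdk1 the highest level in PARP1 WT replicate 1, the second highest in PARP1 WT replicate 2, the 3 lowest levels in PARP2 WT replicate 2 and both PARP2CKO libraries, and a gap inside PARP2 WT. That gap, replicate 1 over replicate 2, was 1.91-fold for Pdk1, 1.403-fold for Itga6 and 1.65-fold for Metap1d. Hat1, a histone acetyltransferase starting 484 kb before Pdk1, lay between 72.2 and 85.4 CPM with a gap of 1.05-fold. Between the WT groups Itga6 differed by -0.55 on the log2 scale (adjusted p = 0.0699), Metap1d by -0.58 (adjusted p = 0.196) and Hat1 by -0.11 (adjusted p = 0.270).

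**Figure D4:**
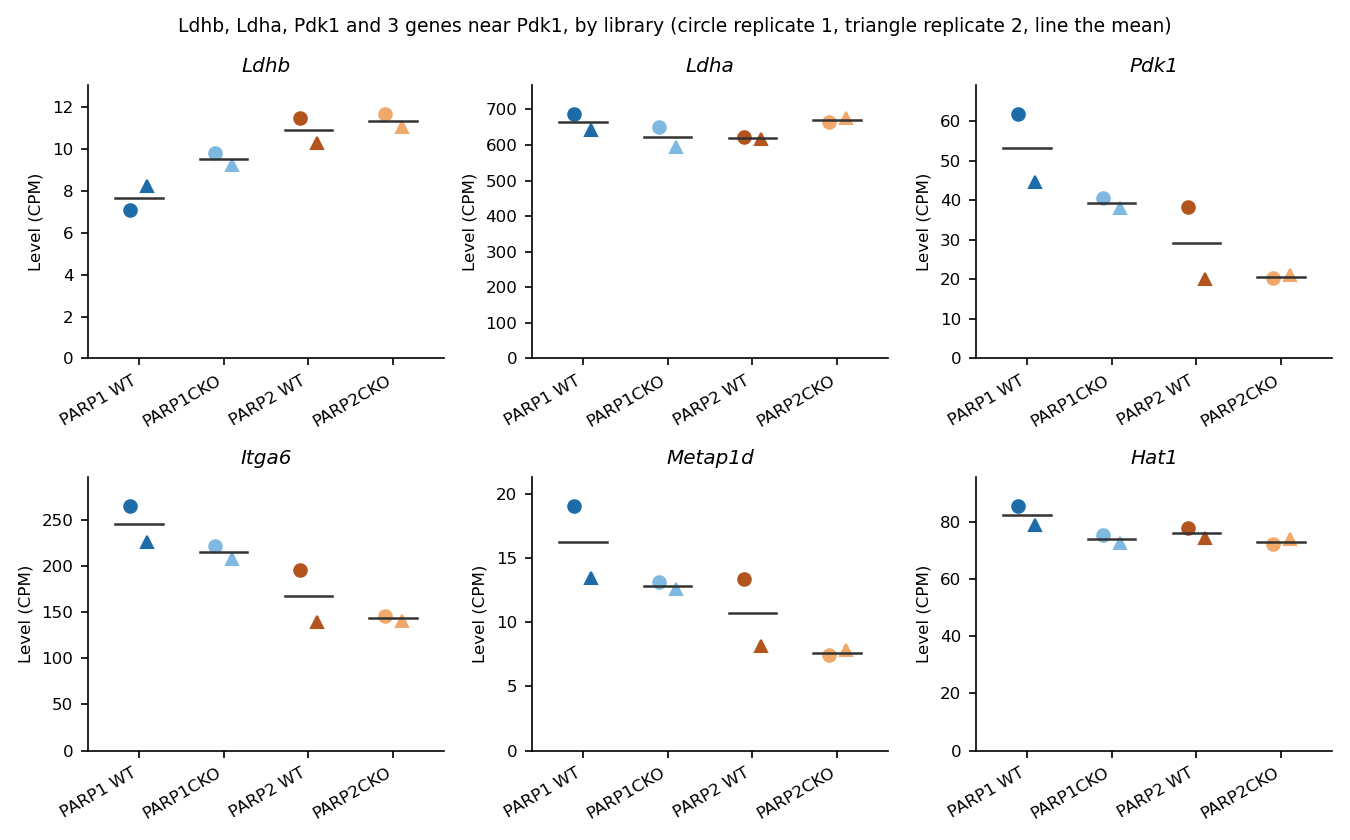
Level in CPM of Ldhb, Ldha, Pdk1 and the genes Itga6, Metap1d and Hat1, which start within 500 kb of Pdk1. Each axis starts at 0, circles are replicate 1, triangles replicate 2 and lines the group means. Ldhb is lowest in PARP1 WT, and Pdk1, Itga6 and Metap1d are highest there and split the PARP2 WT libraries.

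The oxidative branch of the pentose phosphate pathway makes NADPH in 3 steps. G6pdx, glucose 6-phosphate dehydrogenase, the gatekeeper of the branch, had 509 and 499 CPM for PARP1 WT, 529 and 528 CPM for PARP1CKO, 558 and 537 CPM for PARP2 WT and 527 and 522 CPM for PARP2CKO. Pgls, the lactonase of the second step, had 45.2 and 48.9 CPM, 54.3 and 52.1 CPM, 53.0 and 51.2 CPM and 54.8 and 48.7 CPM in the same order. Pgd, the dehydrogenase of the last step, had 1406 and 1308 CPM, 1440 and 1448 CPM, 1364 and 1368 CPM and 1342 and 1354 CPM in the same order. For all 3 genes both PARP1CKO libraries lay above both PARP1 WT libraries, and for G6pdx and Pgd both PARP2CKO libraries lay below both PARP2 WT libraries, where 41.2% and 37.2% of all genes did not overlap in these comparisons and 6.62% did so in opposite directions in both. The PARP1CKO log2 fold changes were 0.07 for G6pdx (adjusted p = 0.548), 0.18 for Pgls (SE 0.0644, unadjusted p = 0.0228, adjusted p = 0.370) and 0.09 for Pgd (SE 0.0475, adjusted p = 0.501). In PARP2CKO they were -0.06, -0.01 and -0.02, with adjusted p-values from 0.954 to 0.997. The difference between the deletion effects was -0.13 for G6pdx (SE 0.0573, adjusted p = 0.642). G6pdx differed between the WT groups by 0.12 (SE 0.0405, adjusted p = 0.161). None of these values passed the test.

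In the non-oxidative branch, ribose 5-phosphate isomerase Rpia makes the ribose of nucleotides. Rpia had 29.6 and 26.0 CPM for PARP1 WT, 27.5 and 31.1 CPM for PARP1CKO, 30.3 and 30.7 CPM for PARP2 WT and 26.3 and 26.0 CPM for PARP2CKO. Both PARP2CKO libraries lay below both PARP2 WT libraries, and the groups of the PARP1 line overlapped. The PARP2CKO effect was -0.22 on the log2 scale (SE 0.0757, 95% interval -0.40 to -0.05, unadjusted p = 0.0164, adjusted p = 0.888). The difference from the PARP1CKO effect was -0.30 (SE 0.108, unadjusted p = 0.0212, adjusted p = 0.609). The epimerase Rpe lay between 56.3 and 62.5 CPM. The sugar-exchanging enzymes lay between 880 and 972 CPM for Tkt (transketolase) and between 566 and 650 CPM for Taldo1 (transaldolase). In the 2 deletion comparisons the log2 fold changes of Rpe, Tkt and Taldo1 lay between -0.07 and 0.05.

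Levels were also summed over each role. The 5 genes of lower glycolysis summed to between 7750 and 8400 CPM, the 3 of the oxidative branch to between 1856 and 2028 CPM and the 4 of the non-oxidative branch to between 1534 and 1696 CPM. The 3 glucose transporters summed to between 153 and 164 CPM in the PARP1 line and to between 137 and 143 CPM in the PARP2 line, with no overlap. The non-oxidative branch did not overlap between the lines either, at 1534 to 1626 CPM and 1637 to 1696 CPM. Between the WT groups alone, the libraries of 51.9% of all genes did not overlap. Of the genes of each role, those that lay higher in PARP1CKO and then in PARP2CKO were 3 and 1 of 3 glucose transporters, 3 and 2 of 3 hexokinases, 3 and 4 of 7 in upper glycolysis, 1 and 1 of 2 PFKFB enzymes, 2 and 4 of 5 in lower glycolysis, 1 and 4 of 4 in lactate handling, 0 and 0 of 2 regulators, 3 and 0 of 3 in the oxidative branch and 2 and 1 of 4 in the non-oxidative branch. None of these genes passed the test in either deletion, and with so few genes a role the counts are a description.

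Other genes of the same and adjoining pathways were taken from lists. Of 33 further genes of glycolysis and the pentose phosphate pathway in the table, 20 were tested, and 0 passed in any of the 5 comparisons. Of the 33, 12 had at most 3 counts in every library. H6pd, which starts a pentose phosphate pathway inside the endoplasmic reticulum, had 62.8 and 64.2 CPM for PARP1 WT, 72.5 and 70.0 CPM for PARP1CKO, 67.6 and 71.0 CPM for PARP2 WT and 79.9 and 73.8 CPM for PARP2CKO. Both CKO groups lay above their WT groups, by 0.16 on the log2 scale averaged over lines (SE 0.035, adjusted p = 0.279). Non-overlap in the same direction in both deletions was found for 8.39% of all genes. Of 13 tested genes of pyruvate entry and pyruvate dehydrogenase, 0 passed in any comparison. At an unadjusted p under 0.05 these lists held between 1 and 4 genes a comparison for the first and between 1 and 2 for the second. Of all genes, between 4.83% and 18.9% a comparison reached this threshold. Of 23 tested HIF pathway genes, 0 passed in either deletion. An unadjusted p under 0.05 was reached by 3 in each, against 11.3% of all genes in PARP1CKO and 4.83% in PARP2CKO. Between the WT groups 3 passed, against 3.16% of all genes, and 6 had an unadjusted p under 0.05, against 18.9%. Epas1, which encodes HIF-2 alpha, was higher in PARP2 WT by 0.80 on the log2 scale (20.1 and 20.9 CPM against 12.2 and 11.4 CPM, adjusted p = 0.00999). Against the same PARP1 WT libraries Epas1 stood at 18.4 and 18.3 CPM in PARP1CKO IMCs, a log2 fold change of 0.64 that did not pass (unadjusted p = 0.000430, adjusted p = 0.135). Plin2, a lipid droplet coat protein, was higher by 0.35 (865 and 860 CPM against 654 and 696 CPM, adjusted p = 0.00703), and Ndrg1, a stress-induced gene, was lower by -0.39 (69.8 and 76.2 CPM against 99.2 and 92.6 CPM, adjusted p = 0.0109). The 3 therefore did not move in a common direction.

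Of 18 tested NADPH and glutathione genes, 0 passed in either deletion. At an unadjusted p under 0.05 there were 2 in PARP1CKO and 0 in PARP2CKO, against 11.3% and 4.83% of all genes. Between the WT groups 2 passed, against 3.16% of all genes, and 8 had an unadjusted p under 0.05, against 18.9% of all genes. Nnt, the mitochondrial transhydrogenase that makes NADPH, had 45.1 and 42.6 CPM for PARP1 WT, 45.8 and 43.5 CPM for PARP1CKO, 57.9 and 76.5 CPM for PARP2 WT and 73.5 and 57.9 CPM for PARP2CKO. All 4 libraries of the PARP2 line lay above all 4 of the PARP1 line, and the log2 difference between the WT groups was 0.61 (SE 0.136, adjusted p = 0.0489). The WT groups alone did not overlap for 51.9% of all genes. Me1, the cytosolic malic enzyme, had 34.9 and 31.3 CPM for PARP1 WT, 39.9 and 41.0 CPM for PARP1CKO, 40.7 and 43.0 CPM for PARP2 WT and 38.0 and 39.5 CPM for PARP2CKO. It was higher in PARP2 WT by 0.34 (SE 0.0606, adjusted p = 0.0229), and its PARP1CKO effect of 0.29 against the same PARP1 WT libraries did not pass (adjusted p = 0.172). Markers of cycling cells, which need ribose and glycolytic intermediates, summed to between 2870 and 3127 CPM, and 0 of 15 passed in any comparison (between 0 and 6 at an unadjusted p under 0.05). In PARP2 WT against PARP1 WT 14 of 15 lay lower. An unadjusted p under 0.05 was reached by 6 of 15, against 18.9% of all genes. The sums did not overlap (2892 to 2907 CPM against 3013 to 3127 CPM), and the libraries of 51.9% of all genes did not overlap either.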

How the data were processed

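Per the labels and the study's methods, 4 µg of total RNA was sequenced as single-end reads, trimmed with fastq-mcf after FastQC (0.11.2), aligned to mm10 with TopHat (2.0.12), marked for duplicates with Picard (1.127) and counted per gene with featureCounts. The authors deposited raw counts. Strand setting, annotation and treatment of multi-mapping reads are not given in the sources used here. The members and gene lists were chosen with earlier results of these data known.

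Counts of all 8 libraries were fitted together with edgeR (4.0.16, R 4.3.3) by quasi-likelihood with TMM factors and the default expression filter. Benjamini-Hochberg adjustment ran over all genes tested, with a threshold of 0.05. Replicate libraries differed beyond counting noise and were kept as 2 per group. An exact permutation test of 2 against 2 libraries cannot go below p = 0.333. Lengths came from GENCODE M21 and promoter windows from RefSeq. Genes were named as members of the list, with others from fixed pathway and marker lists, and Pdk1's neighbours after its values were seen. Alternatives were other scalings and filters, DESeq2 (1.42.0), a likelihood-ratio test, a replicate block, subsets of libraries and each library left out. The fits were tested on simulated data. Some results are not reported here.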

Additional observations from a re-analysis of the deposited data

How the results depend on the processing

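In both deletions, in their difference and in CKO against WT averaged over lines, 0 members were called under every alternative run that kept the adjusted threshold. Over all genes the likelihood-ratio test called the most, at 146 for PARP1CKO, 39 for PARP2CKO, 72 for the difference and 87 for the average, of 13197. At an unadjusted p of 0.05 the counts of members were 3 for PARP1CKO, 1 for PARP2CKO, 4 for the difference, 3 for the average and 10 between the WT groups. Between the WT groups 2 members were called with library size only (Slc2a1 added), without a filter on low counts (Pdk1 added), with DESeq2 (Pfkp added) and with the likelihood-ratio test (Pdk1 added), and 0 with only the libraries of the comparison. The calls over all genes in these fits, in the same order, were 410 of 13197, 872 of 17542, 551 of 13197, 910 of 13197 and 387 of 12972. The main fit called 417 of 13197. Leaving out 1 library gave 0 to 1. With the replicate block 0 were called, with Ldhb at 0.50 on the log2 scale (adjusted p = 0.0541). Replicate deviations correlated at -0.133 in the PARP1 line and 0.147 in the PARP2 line, so no pairing by replicate number common to both lines was shown. A crossed block, added after seeing the data, called 18 genes in PARP1CKO against 14 in the main fit, and 13 against 14 for the average over lines. Between the WT groups it called 378 genes against 417 and kept Ldhb (log2 0.50, adjusted p = 0.0477). The causes were not tested.

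The median log2 fold change of members ran, with 1 library left out, from -0.033 to 0.032 in PARP1CKO, from -0.015 to 0.022 for the average and from -0.043 to 0.013 between the WT groups, where library size only gave -0.045 and moved the median of all genes to -0.038. For 25 log2 fold changes of the members with the lowest p-values in each comparison, 378 of 390 values under alternatives kept direction and side of the threshold, 7 became weaker, 5 stronger and 0 reversed. Outside these 25, only Ldhb, Pdk1, Pfkp and Slc2a1 were examined in the same way, and values that had not passed turned with 1 library left out: Pdk1 (0.04) and Ldhb (-0.01) in PARP2CKO, and Pfkp (-0.04 and -0.03) and Slc2a1 (-0.02 and -0.05) in PARP1CKO. The precision is limited by 2 libraries per group.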
